A study of Mus musculus with 16 samples.

Results

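The cytosolic ribosomal protein genes encode the proteins of the large (Rpl) and small (Rps) subunits of the ribosome that translates nuclear mRNAs. They were followed in RNA-seq libraries of knee joints from wild-type (WT) and Trem2-/- mice, before injury (D0) and on day 7 after rupture of the anterior cruciate ligament (D7). Members were the table symbols that begin with Rpl or Rps and a digit, together with Rplp0, Rplp2 and Rpsa; the Rps6k kinases and pseudogene symbols were left out. This gave 76 of the 13733 genes listed: 38 of the large subunit, 30 of the small subunit, 7 paralogs (Rpl3l, Rpl7l1, Rpl22l1, Rpl36al, Rpl39l, Rps27l and Rps27rt) and 1 symbol that the rule takes but that is no ribosomal protein, Rps19bp1, a binding protein of Rps19. Rpl3, Rpl10, Rpl39, Rpl41, Rplp1 and Rps27 were not analysed here.

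Each ribosome holds one copy of nearly every one of these proteins, and cells make them in matched amounts; surplus proteins that do not enter a subunit are degraded. Their mRNAs are short, abundant and, in most cell types, among the most heavily translated, and many begin with a 5' terminal oligopyrimidine (TOP) tract, a C followed by an unbroken run of C or T, through which mTOR signalling and the RNA-binding protein Larp1 control translation. Paralogs such as Rpl22l1, Rps27l, Rpl39l and Rpl3l can replace the common protein in the ribosome, and some are restricted to certain tissues, as Rpl3l is to heart and skeletal muscle.

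WT animals were C57BL/6J, and Trem2-/- animals carried a germline knockout of Trem2 (C57BL/6J-Trem2em2Adiuj/J), a receptor of the macrophage lineage, in every cell. All were males bought as 2 separate strains, and the injured right knees were loaded once by tibial compression at 10 weeks of age. Each of the 4 combinations of genotype and day had 4 numbered libraries; nothing says that each came from a separate animal, so p-values measure the spread between these libraries. The study describes cells released enzymatically from the joints and a stranded mRNA kit, whereas the labels describe homogenised joints of control and T1DM mice aged 16 weeks and a TruSeq kit; which applies, and whether CD45+ cells were enriched, is not stated.

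Trem2 itself stood at 2.51 to 5.61 counts per 1e6 reads (CPM) in WT D0, 10.7 to 22.5 in WT D7, 0.948 to 2.68 in Trem2-/- D0 and 3.42 to 4.84 in Trem2-/- D7. Reads remained on the gene in every Trem2-/- library; the genotypes did not overlap at D7 (log2 fold change -1.72, adjusted p = 0.0503), and at D0 1 Trem2-/- library lay above the lowest WT library. The libraries held 11567073 to 32867818 reads on listed genes. Marker genes moved with injury in both genotypes: all 12 neutrophil and all 7 pan-leukocyte markers fell, and all 6 chondrocyte markers and 6 (WT) or 7 (Trem2-/-) of 8 fibroblast markers rose. Collagen genes took 0.841 to 7.87% of a D0 library and 14.2 to 19.1% of a D7 library.

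Start sites are shown first because the TOP tract is the sequence feature this gene family is best known for. RefSeq start windows (GRCm38.p6) were found for 60 of the 76 members. In 13 of the 60 (21.7%) the annotated first base was a C followed by C or T to a run of at least 5 bases, against 813 of 27025 symbols with a window (3.01%). A single annotated base decides this match, so a start placed a few bases away counts as no run. The windows below run from 15 bases before the annotated first base to 15 bases from it, 5' to 3' on the gene's strand; capitals mark the pyrimidine run. They are the 5 longest runs (Rpl15, Rpl35, Rps10 and, with equal length, Rps18 and Rps6) and 2 further members named in the results.
Rpl15: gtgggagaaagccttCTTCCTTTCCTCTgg
Rpl35: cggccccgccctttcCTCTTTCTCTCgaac
Rps10: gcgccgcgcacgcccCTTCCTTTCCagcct
Rps18: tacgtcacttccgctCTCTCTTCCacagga
Rps6: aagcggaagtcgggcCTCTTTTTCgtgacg
Rpl38: agcggaagcctcgttCTTTCCCCgttctct
Rplp2: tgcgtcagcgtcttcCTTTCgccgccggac

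These windows lie at chr14:18270972-18271001 (minus strand, Rpl15), chr2:39005117-39005146 (minus, Rpl35), chr17:27635230-27635259 (minus, Rps10), chr17:33955651-33955680 (minus, Rps18), chr4:86857353-86857382 (minus, Rps6), chr11:114668565-114668594 (plus, Rpl38) and chr7:141447636-141447665 (plus, Rplp2), each across the promoter and the start of the first exon. Windows of 3 paralogs and of Rpl22, the common partner of Rpl22l1, follow, at chr4:152325711-152325740 (plus), chr3:28805493-28805522 (plus), chr9:66946071-66946100 (plus) and chr9:114982725-114982754 (minus), because these genes are compared with each other in the results. A run began at the annotated start of Rps27rt, the retrogene copy of Rps27, and not at that of the other 3.
Rpl22: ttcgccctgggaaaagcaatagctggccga
Rpl22l1: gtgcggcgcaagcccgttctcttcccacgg
Rps27l: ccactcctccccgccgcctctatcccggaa
Rps27rt: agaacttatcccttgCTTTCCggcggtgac

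The letters CCGGAAG, on either strand (CTTCCGG on the other), were present in the 300-base window around the start of 24 of the 60 members (40%) and of 2683 of all 27025 symbols (9.93%). These are the letters that ETS-family factors recognise; a match is a description of the window only.

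Per kilobase of transcript, the highest members over all 16 libraries were Rpl23a (838 CPM per kb), Rps12 (774), Rplp2 (770.3) and Rplp0 (749). Rplp0 and Rplp2 form, with Rplp1, the stalk that recruits elongation factors. The paralogs were below these on the same scale, with 218 CPM per kb for Rps27rt, 136 for Rpl36al and 103 for Rpl22l1. The others were Rps27l (59.7), Rpl7l1 (24.3), Rpl39l (3.89) and Rpl3l (2.75). Rps27rt and Rpl36al stood above some subunit genes on this scale, such as Rpl13 (111). Rps20 had 82.7 CPM per kb, but this rests on an annotated transcript of 3706 nt, the longest of the members. Without division by length Rps20 read 307 CPM, above Rps27rt (81.7) and Rpl36al (71.5). Values per kilobase depend on the 1 transcript taken for each gene. Rpl21 was lowest (0.55), and it was the one member below the filter of 1 CPM in at least 4 of the 16 libraries. All tests therefore cover 75 members. Ribosomal protein genes have many processed pseudogenes: 71 of the 76 members share stretches of 75 bases with other annotated genes, and in 37 of them over 50% of all such stretches are shared. For Rpl21 the shared stretches lie in 61 other genes. How reads that match several copies were counted is not stated, so levels of single members are uncertain, and comparisons of one member between groups rest on the same counting in every library.

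The 76 members together took a smaller share of the listed values in the D7 than in the D0 libraries, in both genotypes. The share was 2.24, 2.98, 3.00 and 2.49% in the 4 WT D0 libraries (mean 2.68 ± 0.378, SD, n = 4) and 1.52, 1.99, 1.87 and 1.42% in WT D7 (1.70 ± 0.275). In Trem2-/- it was 2.92, 2.40, 2.89 and 2.59% at D0 (2.70 ± 0.249) and 1.81, 1.94, 1.80 and 2.16% at D7 (1.93 ± 0.166). D0 and D7 libraries did not overlap in either genotype. The share is read against the collagen share above, which moved in the opposite direction. On the TMM scale, which trims the most changed and most abundant genes when it sets the scale, the summed level overlapped between days in both genotypes. It was 21064 to 27008 CPM in WT D0, 15897 to 21604 in WT D7, 21747 to 26909 in Trem2-/- D0 and 20006 to 23153 in Trem2-/- D7. In these bulk libraries, fewer cells rich in ribosomal mRNAs and less of the mRNAs per cell cannot be told apart.

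**Figure D1:**
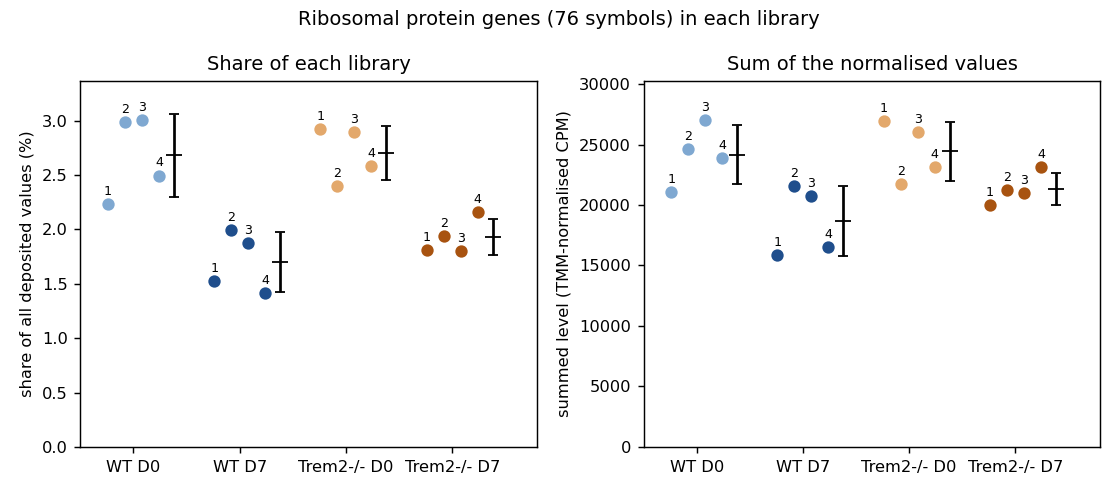
Share of all listed values (left, %) and summed TMM-normalised level (right, CPM) of the 76 ribosomal protein genes; each point is 1 library with its replicate number, and the bars give mean ± SD of the 4 libraries. The D7 shares lie below the D0 shares in both genotypes, while the normalised sums overlap, with WT D7 replicates 1 and 4 lowest at 15897 and 16553 CPM.

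In WT joints, most ribosomal protein genes were lower 7 days after injury, by a similar and modest amount. Of the 75 members tested, 52 fell (69.3%) and 0 rose, where a call needs an unadjusted p under 0.05 in limma and a log2 fold change beyond 0.32 in size; of all 13173 genes tested, 18.2% were called lower and 19.3% higher. With the Benjamini-Hochberg adjusted p under 0.05 instead, 41 members were lower (all genes, 12.6%), and in 21 all 4 D7 libraries lay below all 4 D0 libraries (all genes, 9.34%). All 37 tested large-subunit and all 30 small-subunit genes had a negative log2 fold change, from -0.64 to -0.18. The median over the members was -0.38 (fold 0.771), beside -0.04 over all genes, with a median SE of 0.13. Calls were made for 25 of 30 small-subunit genes (median -0.45), 25 of 37 large-subunit genes (median -0.34) and 2 of 7 paralogs, Rpl3l and Rps27rt. The number of calls moved with single libraries: it was 33 without WT D7 replicate 1, 34 without WT D7 replicate 4 and 36 without WT D0 replicate 3.

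The largest falls among members above 5 CPM were in Rps14, Rps27rt and Rps29, all tied to the small subunit. Rps14, a protein of the small subunit near the decoding site that is lost in the 5q- form of myelodysplastic syndrome, read 301, 272, 369.6 and 318 CPM at D0 and 150.1, 253, 243 and 176 at D7 (log2 fold change -0.64, SE 0.15, adjusted p = 0.00774). Every D7 library was below every D0 library for Rps14. Rps29, a zinc-finger protein of the small subunit head, read 214, 244, 302 and 212 CPM at D0 and 131, 203, 182 and 149.7 at D7 (log2 fold change -0.55, SE 0.14, adjusted p = 0.0129). Rps27rt read 84.6, 87.8, 126 and 81.3 CPM and then 47.1, 71.4, 80.5 and 53.1 (log2 fold change -0.59, SE 0.18, adjusted p = 0.0237). It shares 90.3% of its 75-base stretches with other genes, so that reads of Rps27 may be among its counts. For both Rps29 and Rps27rt the D7 libraries were lower than the D0 libraries without overlap.

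Members known for other roles, for signalling or for disease links were lower in WT too, as were 74 of all 75 members. Rpsa, which is also known as the laminin receptor, read 667, 1001, 964 and 884 CPM at D0 and 542, 793, 680.5 and 549.8 at D7, and the groups overlapped (log2 fold change -0.46, SE 0.17, adjusted p = 0.0525; the call was lost without WT D7 replicate 4). Rps27a, made as a fusion with ubiquitin, fell from 382 ± 49.3 to 265 ± 52.9 CPM (mean ± SD; log2 fold change -0.54, SE 0.14, adjusted p = 0.0136). Rps6, the substrate of the S6 kinases, read 532, 716, 746 and 628 CPM and then 445, 526, 546 and 435 (log2 fold change -0.42, SE 0.13, adjusted p = 0.0296), and 1 D7 library stood above the lowest D0 library. Rps3, which also has a DNA repair activity, fell by 0.48 on the log2 scale (SE 0.14, adjusted p = 0.0202), and Rps19, the gene most often mutated in Diamond-Blackfan anaemia, fell by 0.48 (SE 0.14, adjusted p = 0.0213).

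Rpl5 and Rpl11, which bind the 5S rRNA and can hold back Mdm2, did not give the same call: Rpl5 fell by 0.40 (SE 0.13, adjusted p = 0.037), and Rpl11, at -0.26 (SE 0.11, adjusted p = 0.0906), stayed below the fold threshold. Rpl13a, a component of the interferon-induced silencing complex, fell by 0.43, and Rpl38, needed for the translation of a group of Hox mRNAs, by 0.34. The Rpl38 call was lost without WT D0 replicate 3 or WT D7 replicate 1. Of the 5 members with the most reads, Rpsa and Rps3a1 (log2 fold change -0.42) were called, and Rplp0 (-0.27), Rpl4 (-0.26) and Rpl7 (-0.30) were not. Rplp0, often used as a reference gene in PCR, read 909, 1048, 1161 and 1129 CPM at D0 and 710.4, 1055, 954 and 824 at D7; its groups overlapped, with D7 replicates 1 and 4 lowest. Rps4x, the X-linked small-subunit protein, fell by 0.35 with a call that was lost when WT D0 replicate 2 or 3 or WT D7 replicate 1 or 4 was left out, and the same 4 libraries decided Rpl22 (-0.33) and Rpl36a (-0.36). Rpl36 (-0.33) lost its call without WT D0 replicate 3 or 4 or WT D7 replicate 1 or 4.

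**Figure D2:**
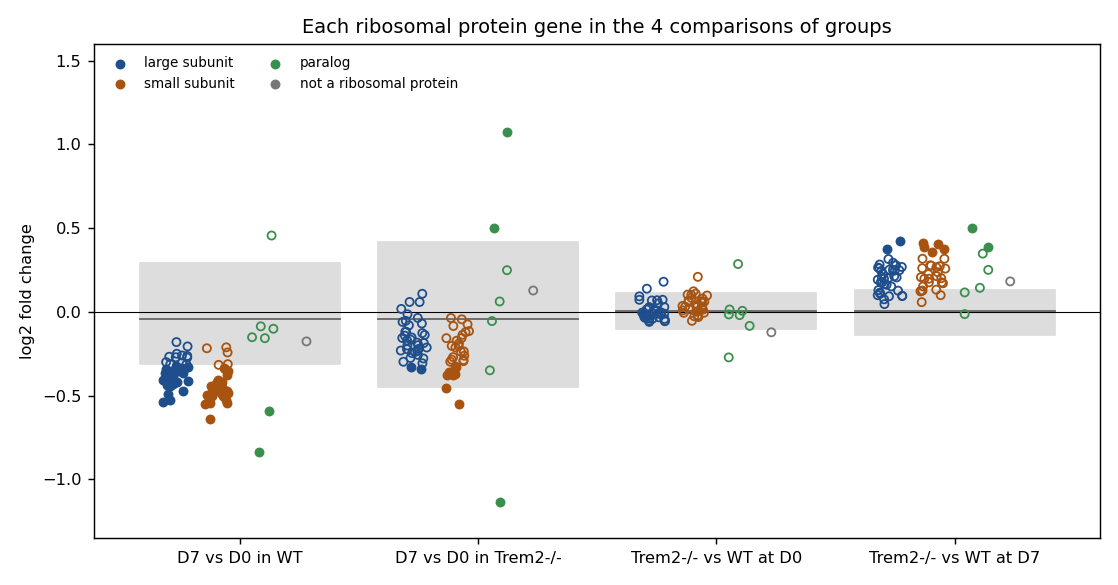
Log2 fold change (vertical axis) of each of the 75 tested members in the 4 comparisons of groups, with filled points for the members called; grey bars span the middle 50% of all 13173 genes and the grey line is their median. In WT all points of both subunits lie between -0.64 and -0.18, in Trem2-/- they lie between -0.55 and 0.11, and at D7 they lie above 0 for Trem2-/- against WT.

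Transcript length moved with the size of this change over all genes. Short transcripts tended to be lower at D7: in WT the median log2 fold change of the other genes was -0.26 for 164 transcripts of up to 600 nt and 0.14 for 1434 transcripts longer than 6000 nt. Members are short, with a median of 751 nt against 2851.5 nt over all genes. Within the shortest class the 28 members had a median of -0.41, and between 600 and 1000 nt the 29 members had -0.35 and the 633 other genes -0.19. When the trend of each library with transcript length and GC content was removed, 7 members were called in WT, 6 lower (Rpsa, Rps3, Rps24, Rps16, Rps14 and Rpl3l) and 1 higher (Rpl39l), and the median over the members was -0.14. Across the 75 members themselves the log2 fold change had no clear relation to length (Pearson's r 0.051, Spearman's rho 0.14), and across the 12805 other genes r was 0.18; genes of one library are not independent replicates. Whether the length trend is of technical origin was not tested.

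**Figure D3:**
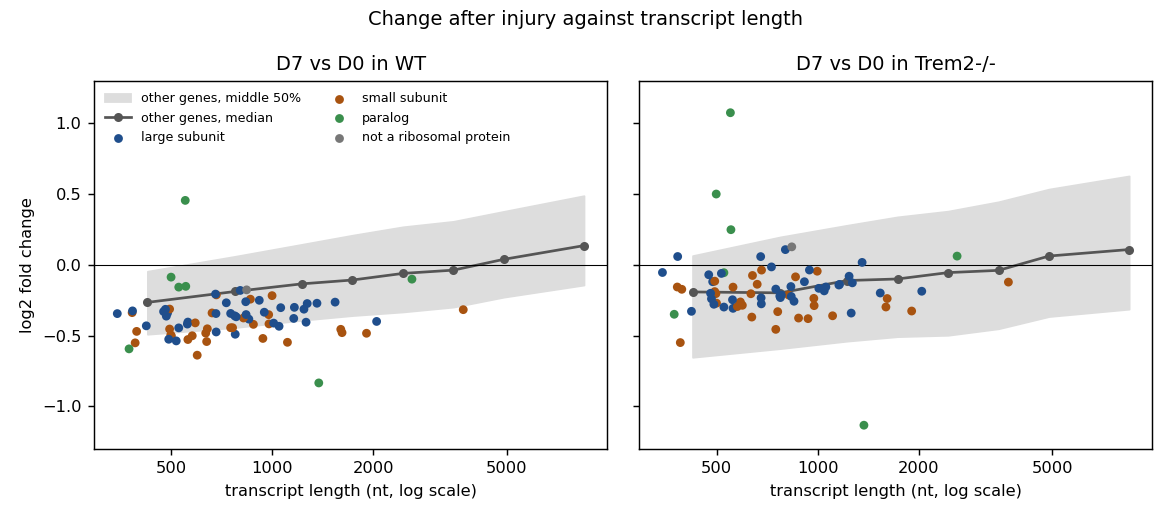
Log2 fold change from D0 to D7 (vertical axis) against transcript length (nt, log scale) in WT (left) and Trem2-/- (right); points are the 75 members, the line is the median of the other genes in 8 length classes and the band their middle 50%. In WT the members up to 600 nt have a median of -0.41 and the other genes of that length -0.26; in Trem2-/- both are at -0.19.

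Members with and without a start-site run are given side by side. In WT the median log2 fold change was -0.43 for the 13 members with a run at the annotated start, of which 12 were called lower, and -0.35 for the 47 without, of which 29 were called. In Trem2-/- the medians were -0.17 and -0.19, with 2 and 5 members called lower. All 7 members of the first set printed above carry both a run and the CCGGAAG letters or their reverse complement within the 300 bases; no test was made of the difference between members with and without either.

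In Trem2-/- joints few of the same genes passed the threshold, and the test of the difference from WT is given further on. From D0 to D7, 11 members fell (14.7%) and 2 rose, beside 27.9% and 26.5% of all genes. By adjusted p, 10 members were lower and 2 higher (all genes, 27.2% and 26.0%). Among the 11 were Rps29, Rps9, Rps23, Rps6, Rps27a, Rps16, Rps3, Rplp2 and the muscle paralog Rpl3l; by class they were 8 of 30 small-subunit genes, 2 of 37 large-subunit genes and 1 of 7 paralogs. The 2 that rose were the paralogs Rps27l and Rpl39l. Groups did not overlap for 20 members with lower D7 values (all genes, 26.3%) and for 3 with higher ones, Rpl22l1, Rps27l and Rpl39l (all genes, 26.1%). The median log2 fold change was -0.19, beside -0.04 for all genes, and 63 of the 67 subunit genes were negative. The share of members called was thus below that of all genes here, and above it in WT.

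Rps29 read 259, 250.4, 296 and 229 CPM in Trem2-/- D0 and 163, 169.9, 177 and 194 in D7 (log2 fold change -0.55, SE 0.14, adjusted p = 0.00521), the same log2 fold change as in WT and without overlap between the days. Rps9, which lies beside the mRNA entry channel, read 178, 154, 188 and 145 and then 120.3, 114, 122 and 125 CPM (log2 fold change -0.46, SE 0.16, adjusted p = 0.0264), and all D7 libraries were lower. Rps23, whose hydroxylated proline sits in the decoding centre, fell by 0.38 (SE 0.13, adjusted p = 0.0224; lost without Trem2-/- D0 replicate 1), and Rps6 by 0.38 (SE 0.13, adjusted p = 0.0271). Rps14, the gene with the largest fall in WT, read 364, 318, 309.7 and 319 and 252, 264, 265 and 293 CPM and did not pass (log2 fold change -0.29, SE 0.15, adjusted p = 0.123). For Rplp0 the values were 1188, 866, 1161 and 1014 CPM at D0 and 977, 1082, 1079 and 1117 at D7, which overlap (log2 fold change 0.02, SE 0.15, adjusted p = 0.933). Rps27a was lost without Trem2-/- D0 replicate 1 or 3 or D7 replicate 1, and both Rps3 (log2 fold change -0.33, SE 0.14, adjusted p = 0.0617) and Rplp2 (log2 fold change -0.33, SE 0.14, adjusted p = 0.0534) without any 1 of 5 libraries.

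The number of Trem2-/- calls also rested on single libraries: it was 7 without D0 replicate 1 or D7 replicate 1 and 20 without D0 replicate 2 or D7 replicate 4. With the length and GC trend removed, 10 members were called and the balance turned, with 9 higher (Rpl15, Rpl24, Rpl22, Rpl36, Rpl38, Rpl22l1, Rps27l, Rps19bp1 and Rpl39l) and 1 lower (Rpl3l), and a median of 0.066.

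Before injury no member passed the threshold between the genotypes. At D0, 0 of the 75 members were called between Trem2-/- and WT by limma, edgeR or voom, and 0 had an unadjusted p under 0.05 with any of the 3, whereas 0.782% of all genes were called higher and 1.37% lower. The median log2 fold change over the members was 0.006, with a median SE of 0.13, and single members ranged from -0.27 (Rpl39l) to 0.29 (Rpl3l). Some cell type markers did differ at D0. Called lower in Trem2-/- were 3 of 6 chondrocyte (median -1.77), 2 of 8 fibroblast (-0.74), 2 of 5 osteoblast and 2 of 10 B lineage markers. Called higher were 3 of 9 dissociation and stress genes and 1 of 10 muscle markers, and the other marker lists had no call. None of these passed adjustment, and their part in the comparisons that use the D0 libraries was not tested.

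On day 7 the members lay higher in Trem2-/- than in WT joints, by a small amount that reached the threshold for few. The log2 fold change was positive for 74 of the 75 members, with a median of 0.21 (fold 1.16) beside 0.008 over all genes. Called higher were 9 members (12%), Rps10, Rps12, Rps14, Rps15a, Rps21, Rpl32, Rpl36, Rpl22l1 and Rps27l, and 0 were called lower, beside 1.18% and 4.53% of all genes. The adjusted p was under 0.05 for 0 of the 13173 genes by limma; 15 members had an unadjusted p under 0.05. All 4 Trem2-/- libraries exceeded all 4 WT libraries for 8 members (Rpl22, Rpl32, Rpl36, Rpl38, Rps12, Rps15a, Rps21 and Rpl22l1; all genes, 3.55%).

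Rpl32, a large-subunit protein long used as a reference gene, read 15.9, 17.2, 19.7 and 14.4 CPM in WT D7 and 20.4, 23.7, 22.0 and 25.1 in Trem2-/- D7 (log2 fold change 0.42, SE 0.16, adjusted p = 0.603). Rpl36 read 103, 137, 124 and 99.4 and 144, 141, 146 and 168 CPM (log2 fold change 0.38, SE 0.12, adjusted p = 0.5). In both genes the lowest Trem2-/- library was above the highest WT library, and both calls were lost without WT D7 replicate 4 (Rpl36 also without Trem2-/- D7 replicate 4). Rps14 read 150.1, 253, 243 and 176 and 252, 264, 265 and 293 CPM, with 1 Trem2-/- library below the highest WT library (log2 fold change 0.41, SE 0.15, adjusted p = 0.587; lost without WT D7 replicate 1).

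The WT D7 libraries were divided among themselves along these genes. In replicate 1, 73 of the 75 members lay below the mean of their own group (median difference -0.22 on the log2 scale), and in replicate 4 this held for 71 (-0.17); in replicates 2 and 3, 74 and 72 members lay above it (0.23 and 0.16). Trem2-/- D7 libraries spanned -0.08 in replicate 1 to 0.12 in replicate 4 on the same measure. The count of members higher in Trem2-/- was 4 without WT D7 replicate 1 (Rpl32, Rpl36, Rpl22l1 and Rps27l), 4 without replicate 4 (Rps14, Rps21, Rpl22l1 and Rps27l), 27 without replicate 2 and 24 without replicate 3. The 2 low WT libraries had the highest chondrocyte marker sums of the group, 61657 and 70996 CPM beside 27924 and 52473, and the highest muscle marker sums, 317 and 349 CPM beside 155 and 157. Their collagen shares were 18.9 and 19.0%, beside 15.9 and 14.2%. The same 2 libraries had the lowest neutrophil sums of the group (5380 and 8153 CPM beside 9162 and 15516), macrophage sums (956 and 993 beside 1237 and 1736), erythroid sums (561 and 411 beside 1026 and 1478) and endothelial sums (1412 and 1554 beside 1802 and 2177), and also the lowest T and NK and adipocyte sums. They were also lowest for elongation factors and other TOP mRNAs (7244 and 7611 CPM beside 8847 and 8104). The same held for mitochondrial ribosomal proteins (887 and 832 beside 1071 and 937) and Rack1 (202 and 214 beside 299 and 255). Sums of initiation factors, ribosome biogenesis factors and mTOR and translation control genes did not separate them. The remaining marker lists did not set these 2 libraries apart. Their pan-leukocyte sums were 1759 and 2609 CPM beside 2353 and 3822, and their fibroblast sums 96085 and 123291 beside 113700 and 85224. The B lineage, osteoblast, proliferation, stress and mitochondrial transcript sums did not separate them either. Depth did not mark the 2 libraries out, at 14976054 and 19683740 reads beside 19146567 and 32184431. The part of these measures in the result was not tested.

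**Figure D4:**
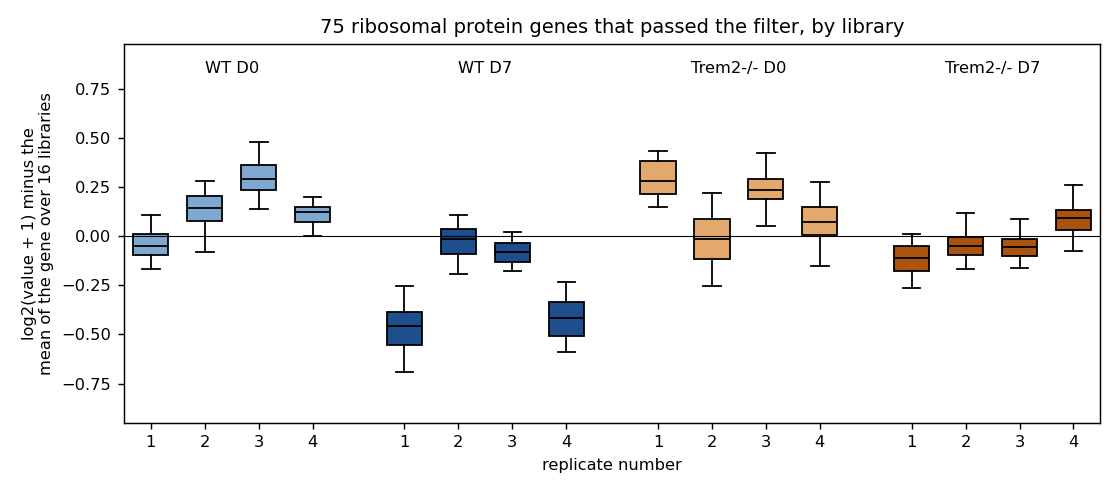
Level of the 75 tested members in each library, as log2(value + 1) minus the mean of each gene over the 16 libraries (vertical axis); boxes give the middle 50% of members with the median, and whiskers the 5th to 95th percentile. WT D7 replicates 1 and 4 sit lowest, with medians of -0.46 and -0.42, while WT D7 replicates 2 and 3 lie near the Trem2-/- D7 libraries.

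The test of the difference itself, the change after injury in Trem2-/- minus that in WT, called 3 members (4%) higher and 0 lower, beside 2.77% and 5.02% of all genes. They were Rps27l (log2 fold change 0.59, SE 0.22, adjusted p = 0.579), Rpl22l1 (log2 fold change 0.40, SE 0.15, adjusted p = 0.579) and Rpl36 (log2 fold change 0.38, SE 0.17, adjusted p = 0.595), none past the threshold after adjustment. The value was positive for 73 of the 75 members, with a median of 0.18. Since every one of these comparisons shares libraries with another, the sign of many members in one of them is not separate evidence from that in the next. With the length and GC trend removed 12 members were called. The count was 12 without WT D7 replicate 2, 6 without WT D7 replicate 3 and 5 without Trem2-/- D0 replicate 1. Rpl22l1 lost its call without Trem2-/- D0 replicate 4, and Rpl36 without WT D0 replicate 3 or 4, WT D7 replicate 1 or 4, Trem2-/- D0 replicate 2 or Trem2-/- D7 replicate 4.

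The paralogs differed among themselves in direction after injury, and Rps27rt is described above with the small subunit. Rpl22l1, which can replace Rpl22 and is repressed by it, read 49.9, 52.7, 62.2 and 59.5 CPM in WT D0, 46.6, 54.7, 49.3 and 50.5 in WT D7, 59.5, 56.8, 61.3 and 45.0 in Trem2-/- D0 and 64.9, 62.3, 65.6 and 70.9 in Trem2-/- D7. The Trem2-/- D7 libraries were the highest of all 16, but from WT D0 the margin was under 1 read. Trem2-/- D7 replicate 2, where 1 read was 0.0689 CPM, stood at 62.30 and WT D0 replicate 3 at 62.25 CPM. Rpl22l1 was called higher in Trem2-/- than in WT at D7 on the unadjusted p alone (log2 fold change 0.39, SE 0.11, adjusted p = 0.451), and from D0 to D7 in Trem2-/- it stayed below the fold threshold (log2 fold change 0.25, SE 0.11, adjusted p = 0.0575). Its ratio to Rpl22 was 0.350 ± 0.0288 in WT D0, 0.396 ± 0.0455 in WT D7, 0.350 ± 0.0398 in Trem2-/- D0 and 0.436 ± 0.00939 in Trem2-/- D7 (mean ± SD, n = 4). 58.6% of the 75-base stretches of Rpl22l1 are shared with 3 other genes.

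Rps27l, a p53 target that pairs with Rps27, read 28.0, 26.3, 28.4 and 29.0 CPM in WT D0, 21.0, 36.4, 28.0 and 22.2 in WT D7, 33.6, 23.9, 26.8 and 22.2 in Trem2-/- D0 and 34.9, 37.9, 35.4 and 42.8 in Trem2-/- D7. It rose after injury in Trem2-/- (log2 fold change 0.50, SE 0.16, adjusted p = 0.0143), where all D7 libraries exceeded all D0 libraries, and was not called in WT (log2 fold change -0.09, SE 0.16, adjusted p = 0.704), where the groups overlapped. At D7 it was likewise called higher in Trem2-/- than in WT on the unadjusted p alone (log2 fold change 0.50, SE 0.16, adjusted p = 0.492), although WT D7 replicate 2 lay within the Trem2-/- range. 12% of its 75-base stretches are shared.

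Rpl39l, the testis-rich relative of Rpl39, was near the filter, at 1.79, 0.621, 1.22 and 2.78 CPM in WT D0 and 2.44, 3.57, 1.59 and 2.32 in WT D7 (log2 fold change 0.46, SE 0.25, adjusted p = 0.175). In Trem2-/- it read 1.41, 1.33, 0.477 and 1.16 CPM at D0 and 4.40, 2.48, 3.70 and 3.00 at D7, a rise without overlap (log2 fold change 1.08, SE 0.25, adjusted p = 0.00227). Rpl3l, the striated-muscle relative of Rpl3, fell in both genotypes, from 6.21, 3.87, 6.75 and 2.34 to 2.99, 1.47, 1.65 and 2.44 CPM in WT (log2 fold change -0.83, SE 0.29, adjusted p = 0.0441) and from 5.04, 6.51, 3.16 and 9.65 to 1.85, 2.55, 1.51 and 2.42 in Trem2-/- (log2 fold change -1.13, SE 0.29, adjusted p = 0.00453). The WT groups overlapped and the Trem2-/- groups did not. The 10 skeletal muscle markers moved beside it: 2 of 10 fell in WT and 8 of 10 in Trem2-/-, with sums of 193 to 744 CPM at D0 and 155 to 349 at D7 in WT, and of 344 to 946 and 158 to 246 in Trem2-/-, and no marker at 0. Their part in the fall of Rpl3l was not tested.

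Rpl36al and Rpl7l1 were not called in any comparison. The ratio of Rpl36al to the X-linked Rpl36a was 0.515 ± 0.0278 in WT D0, 0.594 ± 0.0327 in WT D7, 0.529 ± 0.0482 in Trem2-/- D0 and 0.600 ± 0.0177 in Trem2-/- D7. For Rpl7l1 to Rpl7 it was 0.104 ± 0.0107, 0.119 ± 0.0130, 0.101 ± 0.00471 and 0.117 ± 0.00487 in the same order. Both ratios were higher in the D7 means, with the paralog moving less than the common gene. Rps19bp1, which the symbol rule includes, was also not called in any comparison (-0.18 in WT and 0.13 in Trem2-/-).

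**Figure D5:**
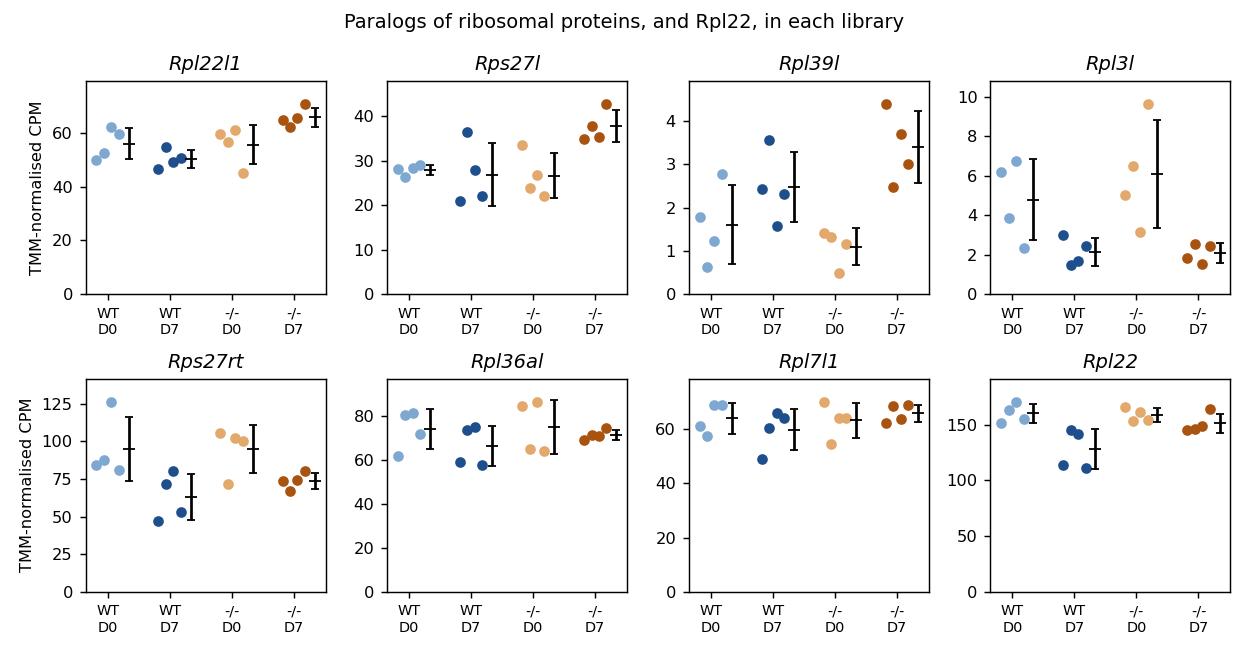
TMM-normalised level (CPM, vertical axis from 0) of the 7 paralogs and of Rpl22 in each library of the 4 groups; points are libraries and bars give mean ± SD of 4. Trem2-/- D7 libraries are highest for Rpl22l1 (62.3 to 70.9 CPM), and Rpl3l is lower at D7 in both genotypes.

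Genes that make, regulate or work with the ribosome, taken from lists of known function, were mostly not called in WT. Of all genes, 18.2% were called lower and 19.3% higher in WT, and 27.9% and 26.5% in Trem2-/-. Rack1, the small-subunit scaffold protein outside the symbol rule, fell by 0.33 in WT (SE 0.13, adjusted p = 0.0787) and read -0.12 in Trem2-/- (SE 0.13, adjusted p = 0.48). Of 10 elongation factors and other TOP mRNAs, 1 rose and 0 fell in each genotype; it was Vim, the intermediate filament gene of mesenchymal cells (log2 fold change 1.08, SE 0.23, adjusted p = 0.00469 in WT, and 1.40 in Trem2-/-), and not an elongation factor. Of 28 initiation factors, 1 rose and 3 fell in both. The riser was the scaffold factor Eif4g1, by 0.47 in WT (SE 0.10, adjusted p = 0.00471), and Eif5, the GTPase activator of the start codon complex, and Eif3k were among the 3 that fell in each. Of 43 ribosome biogenesis factors, 5 fell in WT (Nop58, Nhp2, Rrs1, Dkc1 and Rrp1b) and 0 rose, while in Trem2-/- 6 fell and 7 rose. In WT the median log2 fold change was -0.17 for the elongation and TOP list (7 of 10 negative) and -0.08 for initiation factors (20 of 28). For biogenesis factors it was -0.19 (32 of 43), beside -0.04 over all genes and -0.38 over the members. In Trem2-/- these lists had medians of 0.005, 0.020 and -0.033.

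Among 27 genes of mTOR and translation control, 3 rose and 4 fell in WT and 6 rose and 7 fell in Trem2-/-. These counts did not exceed the shares of all genes, 19.3% higher and 18.2% lower in WT and 26.5% and 27.9% in Trem2-/-. The largest falls were in Rps6ka1, an S6 kinase of the MAP kinase pathway that is rich in leukocytes (log2 fold change -1.32, SE 0.36, adjusted p = 0.0156 in WT and -2.09 in Trem2-/-), and in the Myc antagonist Mxi1 (-0.61 and -0.92). Max, the partner of Myc, fell by 0.81 in Trem2-/-. Akt1s1, the mTOR complex component PRAS40, rose by 0.66 in WT (SE 0.16, adjusted p = 0.00909) and 0.96 in Trem2-/-, and Mxd4, another Myc antagonist, by 0.80 in Trem2-/-. Of the 74 mitochondrial ribosomal proteins, encoded in the nucleus but part of a different ribosome, 14 fell and 0 rose in WT, with a median log2 fold change of -0.18, and 12 fell and 3 rose in Trem2-/- (median -0.11). Mrpl49 had the largest WT fall of these (log2 fold change -0.56, SE 0.15, adjusted p = 0.0149). The share called lower in WT, 14 of 74, was near that of all genes, where 52 of 75 cytosolic members were called. Between genotypes at D7, 2 mitochondrial ribosomal genes, Mrpl20 and Mrpl14, were called higher (all genes, 1.18%) and 0 genes of the other lists of this kind were called.

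Cell type markers moved in the same comparisons, in which 18.2% of all genes fell and 19.3% rose in WT, and 27.9% and 26.5% in Trem2-/-. In WT, the 12 neutrophil markers summed to 15856 to 37169 CPM at D0 and to 5380 to 15516 at D7, and the 7 pan-leukocyte markers to 3152 to 6328 and 1759 to 3822, the latter with overlap. In Trem2-/- the neutrophil sums were 16590 to 51406 CPM at D0 and 4820 to 8184 at D7, and the pan-leukocyte sums 3928 to 7030 and 1369 to 1763. Fibroblast marker sums in WT were 11511 to 55775 CPM at D0 and 85224 to 123291 at D7, and in Trem2-/- 8393 to 18159 and 105838 to 152941. For chondrocyte markers they were 667 to 12178 and 27924 to 70996 CPM in WT, and 1002 to 3817 and 26119 to 40156 in Trem2-/-. Of the other lists, all 5 erythroid markers fell in both genotypes (median log2 fold change -1.46 in WT and -1.93 in Trem2-/-), as did 9 of 10 B lineage markers and 5 (WT) or 6 (Trem2-/-) of 6 T and NK markers. Macrophage markers rose in 6 of 8 in WT, and in Trem2-/- 5 of 8 rose and 2 fell. Osteoblast markers rose in 3 of 5 in each genotype, endothelial markers were called in 0 of 5, and 1 of 2 tested adipocyte markers fell in each. Among signs of RNA and cell quality, 2 of 9 dissociation and stress genes fell in WT and 6 of 9 in Trem2-/-, and the 1 mitochondrial transcript listed changed by -0.89 on the log2 scale in WT, without a call, and by -1.60 in Trem2-/-, called lower. Proliferation genes fell in 1 of 7 in WT and 5 of 7 in Trem2-/-. At D7, 6 of 7 pan-leukocyte, 8 of 10 B lineage and 3 of 8 macrophage markers were called lower in Trem2-/- than in WT (all genes, 4.53%). So were 1 of 5 erythroid and 1 of 10 muscle markers, and no marker was called higher. The medians of the fibroblast (0.31, 8 of 8 positive), endothelial (0.24, 4 of 5), adipocyte (0.15) and stress (0.03) lists were positive, as for the ribosomal members. Those of the other marker lists were negative. No gene of these lists was at 0 in any group, and the part of cell composition in the ribosomal results was not tested.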

How the data were processed

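Per the study's methods, the authors used STAR for alignment to mm10, featureCounts for gene counts and edgeR for TMM normalisation (versions, annotation, strand setting and low-count filter not given in the sources used here). The deposited values are a normalised signal, CPM of a TMM-scaled library, 1 column per library; 100% of values were whole reads within 0.05 of a read, so reads were recovered for edgeR and voom. Members, lists and tests were chosen with earlier results of these data known. The 13173 genes that reached 1 CPM in 4 or more of 16 libraries were fitted by limma (3.58.1, trended prior, R 4.3.3) on log2(value + 1), all 4 groups as one factor; fold changes are on that scale, which understates low genes. A call needed p under 0.05 and a log2 fold change beyond 0.32, the study's thresholds, with Benjamini-Hochberg adjusted p over all genes. The fits were tested on simulated data. Alternatives were other pseudocounts (0.1 and 5), filters, scalings, edgeR 4.0.16, voom, a fold change over 1.5, a replicate block, removal of length and GC trends, and each library left out. Transcript length and shared stretches came from the GENCODE annotation of GRCm38, which named 13428 of 13733 genes and all 76 members; start windows came from RefSeq. Named members were a fixed set of 29, of which 22 were listed, the 5 highest and 3 lowest by mean, and per comparison the 3 largest calls each way above 5 CPM; other names complete counts or were chosen after values were seen. 1 symbol was listed 2 times with the same values, and 1 copy was kept among the 13733 genes. Some results for single members are not reported here.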

Additional observations from a re-analysis of the deposited data

Results flagged for a closer look

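The 32 named members and the summed share of the members were screened in each group, which gave 132 combinations. In 5 of the 132, all of single members, 1 library stood apart from the other 3 of its group. The measure was the ratio of the gap to the whole range, for which chance alone flags about 1 in 20. Rpl21, at 0.963 CPM in WT D7 replicate 2 against 0.279 to 0.310 in the others, had a ratio of 0.954. Rps14 in Trem2-/- D0 had 0.834, from replicate 1 at 363.9 CPM against 309.7 to 318.7. Rps27rt had 0.855 in WT D0, from replicate 3 at 126.5 CPM against 81.3 to 87.8, and 0.846 in Trem2-/- D0, from replicate 2 at 71.6 against 100.4 to 105.6. Rpl36 in Trem2-/- D0 had 0.872, from replicate 2 at 119.6 CPM against 149.8 to 154.2.

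The interaction test in limma called 3 of 75 members (4%) higher on unadjusted p alone, near the 2.77% of all genes called higher, and none passed after adjustment. The difference, Trem2-/- minus WT on the log2 scale, was 0.3845 for Rpl36 (SE 0.17, adjusted p = 0.595), 0.4004 for Rpl22l1 (SE 0.15, adjusted p = 0.579) and 0.5875 for Rps27l (SE 0.22, adjusted p = 0.579).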

How the results depend on the processing

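The sign of the members' median log2 fold change held under every alternative for WT, for Trem2-/- against WT at D7 and for the interaction, and changed in Trem2-/- with the length and GC trend removed (median 0.066 in place of -0.19). Between the genotypes at D0, where the median was 0.006, it turned negative under quantile normalization (-0.018), with the length and GC trend removed (-0.050) and without WT D0 replicate 1 (-0.052), Trem2-/- D0 replicate 1 (-0.040) or Trem2-/- D0 replicate 3 (-0.020), with 0 calls each time. Removing the length and GC trend gave, in WT, a median of -0.14 in place of -0.38 and 7 calls in place of 52, and in the interaction 12 calls in place of 3. It also turned the sign of Rpl38 (0.035), Rpl22 (0.050) and Rpl36a (0.019) in WT and of Rplp2 in Trem2-/- (0.093), none of them called then. With a fold change over 1.5 the calls were 3 in WT (Rpl3l, Rps14 and Rps27rt), 2 in Trem2-/- (Rpl3l and Rpl39l), 0 for the genotypes at D7 (15 members at unadjusted p under 0.05) and 1 in the interaction (Rps27l). With 1 library left out, calls ranged from 33 to 62 in WT, 7 to 20 in Trem2-/-, 4 to 27 for the genotypes at D7 and 2 to 12 in the interaction; at D0 they stayed at 0. Of 1164 refits of 39 named calls, 1041 kept the call, 119 lost it and 4 turned sign; 47 losses came from leaving out 1 library, 33 from the fold threshold and 21 from the length and GC trend. On recovered reads edgeR called 51, 13, 9, 0 and 3 members (WT, Trem2-/-, genotypes at D7, at D0, interaction) and voom 53, 12, 12, 0 and 3. The replicate block left all counts as they were (52, 13, 9, 0 and 3); same-numbered libraries did not deviate together in all pairs (correlation over 0.1 in 11 of 24 pairs, range -0.509 to 0.406), so the numbers were not taken to pair them; between WT D0 and WT D7 the 4 correlations were 0.046, 0.203, 0.406 and 0.306, 3 of them over 0.1. A fit of only the groups compared cannot give the interaction, and Rpl3l and Rpl39l fall below the filter on a mean of 5 CPM and have no value there. Shared stretches limit what single members show, and depth limits mainly the members below 10 CPM in every library (Rpl21, Rpl39l, Rpl3l and Rps19bp1).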
